A study of Mus musculus with 4 samples.

Results

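The genes described here encode the translation initiation factors (eIF) and elongation factors (eEF) of the cytosol, with the enzymes and binding proteins that carry their names. Members were the protein-coding genes of the deposited table whose symbol begins with Eif and a digit or with Eef1 or Eef2. Eif4e, Eif4ebp1, Eif4ebp2, Eif2ak2 and Eif2s3y were left out. This gave 61 genes of 53715, picked out by name. The rule was set with earlier results of these data known. Their RNA was measured in CD4+CD8+ double-positive (DP) thymocytes sorted from C57BL/6 mice 6 to 8 weeks old. The wild-type group (WT, 2 libraries) was compared with the knockout group (KO, 2 libraries), whose labelled genotype is LCKCre/+ Srsf1fl/fl. In the KO mice the Lck promoter, active from an early thymocyte stage, drives a Cre recombinase that cuts floxed Srsf1, a gene for an SR protein of pre-mRNA splicing. The labels give the WT genotype only as WT, so whether those mice carried the floxed allele or Cre is not given in the sources used here. They also do not say whether libraries of one group came from separate animals, so p-values measure the spread between these libraries, which may be technical.

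Initiation starts when eIF2, charged with GTP and the initiator tRNA, joins the small ribosomal subunit together with eIF1, eIF1A, eIF3 and eIF5. The eIF4 factors bring in the capped mRNA, the complex scans to the start codon, and eIF5B then helps the large subunit to join. In the elongation cycle eEF1A delivers charged tRNAs and eEF2 moves the ribosome along. Cells can slow initiation by phosphorylating eIF2, which blocks its exchange factor eIF2B. SRSF1 itself is known to shuttle to the cytoplasm and to act on translation there, besides its part in splicing.

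The libraries held 35862730 to 37033180 counts. Srsf1, the targeted gene, had 134 and 123 CPM (counts scaled to the library total) in WT and 49.7 and 48.7 CPM in KO, so RNA from the gene was lower but still present in both KO libraries. All 9 DP markers examined were detected. Of these, 5 were higher in KO by the test used below, with a summed level of 7915 to 8223 CPM in WT and 11265 to 11653 CPM in KO. Markers of other cells were low. Thymic epithelial markers (6 genes) summed to 11.6 to 13.4 CPM in WT and 9.89 to 12.1 CPM in KO, with Foxn1 and Krt5 at 0 counts in every library. The 4 B cell markers summed to 9.89 to 12.02 CPM in WT and 18.6 to 20.7 CPM in KO, with Cd79b higher in KO and Ms4a1 at 0 to 24 counts in each library. The 6 myeloid markers summed to 12.4 to 22.2 CPM, and the 5 erythroid ones to at most 4.33 CPM. The 5 stromal and endothelial markers summed to 120 to 137 CPM, nearly all from Pecam1. The part of any of these shifts in the results below was not tested. In bulk RNA, a change in the mix of cells and a change in RNA per cell cannot be told apart.

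Most translation factor genes changed little. Counts were compared with the edgeR quasi-likelihood test over all genes, and a gene was called at a Benjamini-Hochberg adjusted p under 0.05. Of the 61 genes, 59 passed the filter on low counts. Among these 8 rose in KO, 3 fell and 48 were not called. The share that rose was 13.6% and the share that fell 5.08%, against 6.63% and 7.89% of the 16588 genes tested. In all, 18.6% of the members were called against 14.5% of all genes. The members are all protein-coding, and of the 12645 protein-coding genes tested 8.22% rose and 9.83% fell. Of these, 18.1% were called, so the share of members called was near that of protein-coding genes. With a gene length correction the balance over all genes turned, from 1100 higher and 1308 lower to 1502 higher (9.05%) and 1032 lower (6.22%), and 12 members were called higher (20.3%) and 3 lower. Abundant genes are called more often. Where the mean reached 100 CPM, 6 of 28 members rose (21.4%, against 18.6% of all such genes) and 1 of 28 fell (3.57%, against 17.3%), so that 25% of these members and 35.9% of these genes were called. The members' median log2 fold change was 0.077, against 0.0022 over all genes tested. Both KO libraries lay above both WT libraries for 29 of the 59 genes (49.2%, against 27.8% of all genes tested) and below them for 12 (20.3%, against 28.1%). Where the mean reached 100 CPM, 60.7% of members lay above, against 40.5% of all such genes, and 17.9% below, against 33.5%. None of these shares was tested against the rest of the genome.

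**Figure D1:**
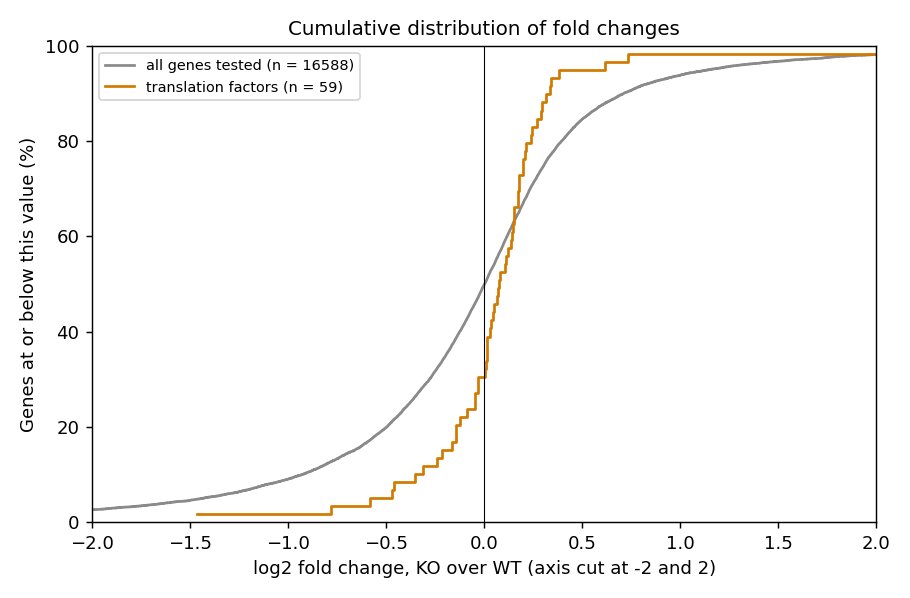
Cumulative share of genes (y axis, percent) at or below each log2 fold change, KO over WT (x axis, cut at -2 and 2), for the 59 translation factors tested and for all 16588 genes tested. The curve of the translation factors is the steeper one and lies to the right of the other up to and beyond 0, with medians of 0.077 and 0.0022.

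Of the 11 calls, 3 held in all 15 alternative analyses tried, namely the falls of Eif2ak3 and Eif4e3 and the rise of Eif1b. The other 8 were changes of 0.21 to 0.47 log2 units in size. Each of these kept its direction but lost its call in 3 to 7 of the alternatives. They all lost it when WT replicate 1 was left out, and all 8 lost it on log2 of the deposited RPKM values (limma). Without WT replicate 1 or without KO replicate 1, 2 members were called higher (3.39%), below the share of all genes (5.26% and 5.46%). Without WT replicate 2 the count was 5 (8.47%, against 5.25%), and without KO replicate 2 it was 13 (22%, against 6.69%). The higher share of rises among members than among all genes was thus not seen without WT replicate 1 or without KO replicate 1. It was also not seen on log2 of the RPKM values. There 1 member was called higher (1.69%), against 2.45% of all genes with 0.5 added to the RPKM and 2.43% with 0.1 added.

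**Figure D2:**
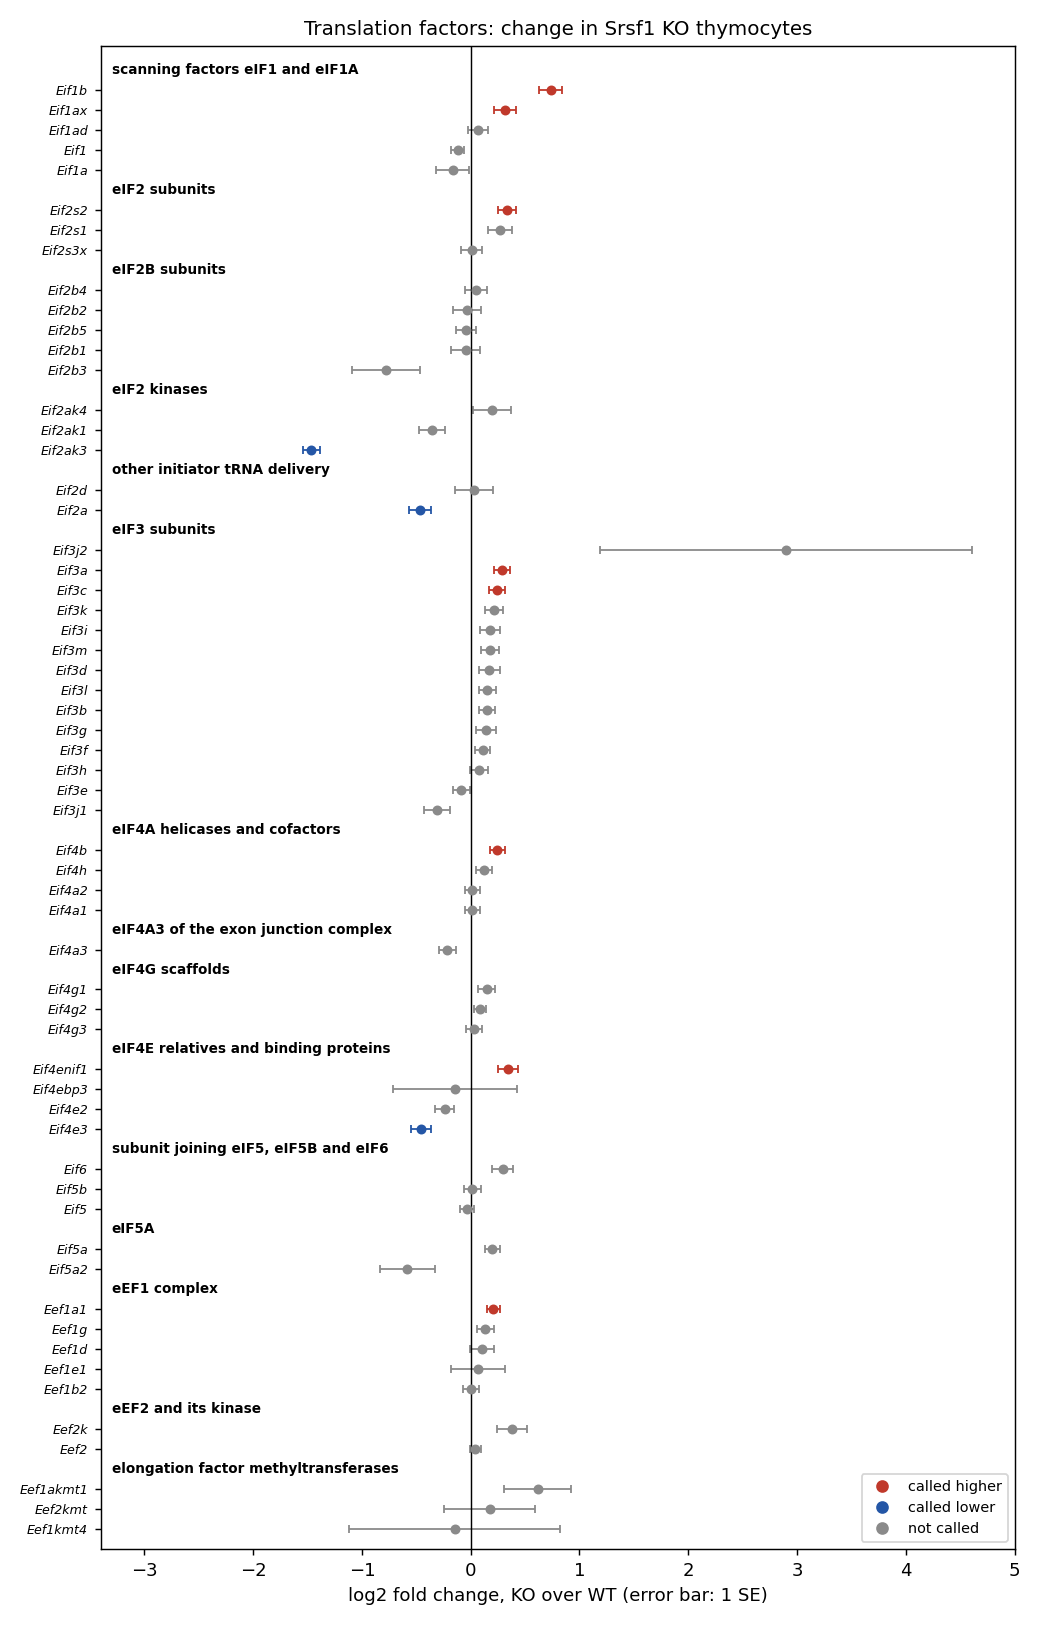
Log2 fold change, KO over WT (x axis), of each of the 59 translation factor genes tested, grouped by role; bars are 1 SE of the edgeR estimate. Red marks the 8 genes called higher and blue the 3 called lower; Eif2ak3 lies farthest to the left at -1.47, and Eif3j2, which was high in a single library, has the widest bar.

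The largest change among the called genes was in Eif2ak3, which encodes PERK, the kinase of the endoplasmic reticulum that phosphorylates eIF2 when unfolded proteins accumulate. Eif2ak3 (ENSMUSG00000031668.14, chromosome 6, 70844515 to 70905245, plus strand, GRCm38) had 599 and 603 CPM in WT and 205 and 229.6 CPM in KO. The groups were far apart, and each pair of replicates lay close together. The log2 fold change was -1.47 (SE 0.08, adjusted p = 7.28e-07), so that the KO libraries kept 0.362 of the WT level. Per length, its level of 99.8 ± 0.479 RPKM in WT (SD, n = 2 libraries here and below) was the highest of the 3 eIF2 kinase genes among the members. In KO it was 36 ± 2.93 RPKM. An unnamed gene on the opposite strand, Gm43292, overlaps 485 of its exonic bases. Gm43292 went from 11.8 to 3.80 CPM on average, a small amount beside the reads of Eif2ak3, and was called lower as well. The other eIF2 kinase genes among the members were at lower levels. Eif2ak1, the heme-regulated kinase, had 66.4 and 59.9 CPM in WT and 45.7 and 53.0 CPM in KO (a log2 change of -0.35, SE 0.12, adjusted p = 0.0661). Eif2ak1 was below both WT libraries in both KO libraries without passing the main test, and it passed in 5 alternatives. Eif2ak4, which encodes Gcn2, the sensor of uncharged tRNA, had 19.1 and 18.6 CPM in WT and 22.2 and 21.1 CPM in KO and was not called (log2 fold change 0.20, SE 0.17, adjusted p = 0.53).

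The sequences upstream of the genes with the largest called fall and the largest called rise, Eif2ak3 and Eif1b, are shown because these changes held in every alternative. That of Eif2a, which also fell, is shown for comparison. RefSeq starts on GRCm38.p6 were matched for 46 of the 61 members and 10 of the 11 called ones, all but Eif4e3. Each line gives the 250 bases before the start, 5′ to 3′ on the gene's strand, and capitals mark a match to the CCAAT box CCAAT, the E-box core CACGTG, the cAMP response palindrome TGACGTCA or the ETS-type motif CCGGAAGT on either strand.
Eif2ak3, chr6:70844265-70844514, plus strand: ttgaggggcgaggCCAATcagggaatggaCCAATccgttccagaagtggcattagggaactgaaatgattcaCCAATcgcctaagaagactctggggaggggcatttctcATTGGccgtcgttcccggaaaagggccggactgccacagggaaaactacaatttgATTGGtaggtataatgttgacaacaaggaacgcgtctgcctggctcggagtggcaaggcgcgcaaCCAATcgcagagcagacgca
Eif1b, chr9:120492356-120492605, plus strand: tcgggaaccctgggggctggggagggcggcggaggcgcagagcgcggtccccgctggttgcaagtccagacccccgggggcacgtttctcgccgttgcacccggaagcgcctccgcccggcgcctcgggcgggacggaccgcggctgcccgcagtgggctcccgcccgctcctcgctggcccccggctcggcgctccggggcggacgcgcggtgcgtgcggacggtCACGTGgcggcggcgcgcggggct
Eif2a, chr3:58525571-58525820, plus strand: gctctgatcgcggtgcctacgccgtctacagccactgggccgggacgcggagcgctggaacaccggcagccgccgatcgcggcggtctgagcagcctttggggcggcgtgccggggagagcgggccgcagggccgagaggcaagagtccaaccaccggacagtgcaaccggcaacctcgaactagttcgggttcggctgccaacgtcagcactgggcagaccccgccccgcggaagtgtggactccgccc
The start of Eif1b in RefSeq lies downstream of the GENCODE start given for the gene below. The Eif2ak3 window holds 6 copies of CCAAT or its reverse complement, ATTGG. At least 1 copy is present in 33.85% of the 32851 promoter windows of the same length, and 6 or more in 19 of them (0.058%). No other member had 4 or more. The Eif1b window holds a single CACGTG and the Eif2a window none of the letters searched. Among members with a matched start, 10 of 46 had CACGTG upstream of at least 1 start (21.7%), against 6.86% of the 27025 genes with RefSeq windows. CCAAT was present for 14 (30.4%, against 37.5%), CCGGAAGT for 5 (10.9%, against 3.23%) and TGACGTCA for 0 (against 1.77%). The member windows had a median GC content of 61.8%, against 52.4% over all windows. The genes compared with were not limited to those expressed here or matched for GC content, and these shares were not tested. Letter matches describe the sequence only, and no binding was measured.

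The factors that carry the initiator tRNA differed in direction. Eif2a, which encodes a factor distinct from the eIF2 complex that can deliver the initiator tRNA without GTP, had 109 and 94.8 CPM in WT and 75.9 and 71.1 CPM in KO. Both KO libraries lay below both WT libraries, and the gene fell by 0.47 on the log2 scale (SE 0.10, adjusted p = 0.00778). Leaving out WT replicate 1 ended the call (adjusted p = 0.0739). Of the 3 subunits of eIF2 itself, Eif2s2 (the beta subunit) rose. Eif2s2 had 90.3 and 89.99 CPM in WT and 117 and 109.8 CPM in KO (a log2 change of 0.33, SE 0.09, adjusted p = 0.02). Leaving out any library but KO replicate 2 ended that call, with adjusted p = 0.0561 to 0.0657. Eif2s1, the alpha subunit that the eIF2 kinases phosphorylate, had 54.9 and 53.5 CPM in WT and 71.0 and 59.4 CPM in KO, a difference that was not called (log2 fold change 0.27, SE 0.11, adjusted p = 0.139). The X-linked gene of the gamma subunit, Eif2s3x, was the most abundant of the 3 per length, with 20.2 ± 0.486 RPKM in WT and 20.3 ± 1.40 RPKM in KO. Eif2d, a tRNA delivery factor of reinitiation and recycling, was at 23.1 CPM in WT and 23.6 CPM in KO.

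No gene of eIF2B, the exchange factor that reloads eIF2 with GTP, was called. Eif2b2 was the most abundant per length, at 44.6 ± 1.97 RPKM in WT and 43.5 ± 8.87 RPKM in KO, with the KO libraries lying on either side of WT. Eif2b1, Eif2b4 and Eif2b5 had log2 fold changes between -0.05 and 0.05. Eif2b3, which encodes the gamma subunit, was the least abundant at 1.14 ± 0.0985 RPKM in WT and 0.666 ± 0.0361 RPKM in KO. Its counts were 284 and 256 in WT and 167 and 152 in KO. Both KO values were below both WT values, but at these counts the change did not pass the test (log2 fold change -0.78, 95% interval -1.45 to -0.11, adjusted p = 0.121).

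Among the factors that keep the scanning complex open, the gene Eif1b rose while its more abundant relative Eif1 did not. Both encode versions of eIF1, which guards start codon choice. Eif1b (ENSMUSG00000006941.5, chromosome 9, 120492232 to 120495330, plus strand) had 46.8 and 41.8 CPM in WT and 74.3 and 72.9 CPM in KO. The 2 groups did not overlap, and the log2 fold change was 0.73 (SE 0.11, adjusted p = 0.000754), a rise of 1.66 times. Eif1 had 723 and 753 CPM in WT and 680.04 and 676 CPM in KO (a log2 change of -0.12, SE 0.06, adjusted p = 0.249). Per length, Eif1b stood at 0.121 and 0.104 of the Eif1 level in WT and at 0.204 and 0.201 in KO. The ratio was higher in both KO libraries, and with 2 libraries a group it was not tested. Eif1 remained the main form in every library.

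For eIF1A, which works with eIF1 on the small subunit, the X-linked gene Eif1ax rose and its autosomal copy Eif1a was not called. Eif1ax had 78.4 and 86.3 CPM in WT and 109.6 and 95.3 CPM in KO. The KO libraries were the higher ones, but the replicates of each group were spread (log2 fold change 0.32, SE 0.10, adjusted p = 0.0493). That call sat at the threshold and was lost in 7 alternatives, DESeq2 among them (0.0535). Eif1a had 36.8 and 46.8 CPM in WT and 40.1 and 34.4 CPM in KO, with overlapping groups. Eif1ad, an eIF1A domain protein gene, had a log2 fold change of 0.07 (SE 0.09).

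**Figure D3:**
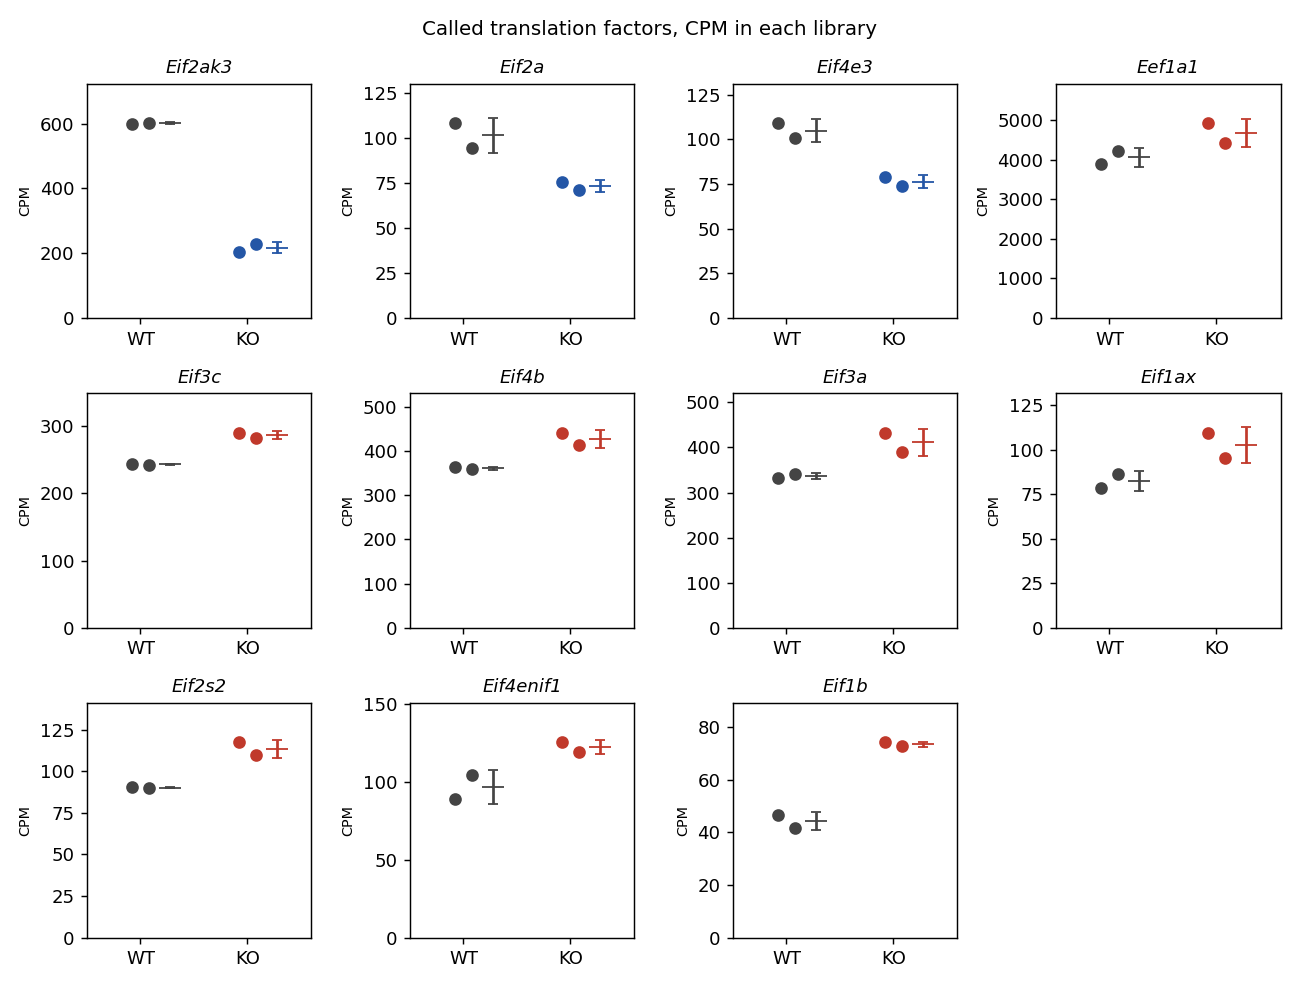
CPM (y axis, from 0) of the 11 called translation factor genes in each library; dots are the 2 WT and 2 KO libraries, and the bar beside them is the mean with 1 SD. Eif2ak3 drops from 599 and 603 CPM in WT to 205 and 229.6 CPM in KO, while the rises other than Eif1b are small beside the level of the gene.

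The genes of eIF3, the largest initiation factor and the platform on which the small subunit complex assembles, were mostly not called. Of 14, 2 rose (14.3%, against 6.63% of all genes tested), none fell and 12 were not called. The 2 that rose, Eif3a and Eif3c, averaged over 100 CPM, and 18.6% of all genes that abundant rose. The share of rises was thus not above that of abundant genes, and the eIF3 genes were not split by level. Log2 fold changes were above 0 in 12 of the 14, with a median of 0.16. That share was 85.7%, against 50.2% of all genes tested and 54.8% of abundant ones. At an unadjusted p under 0.05 in the edgeR test, 4 of the 14 passed, 1 of them (Eif3j1) downward. That share was 28.6%, against 27.4% of all genes tested and 52.5% of abundant ones. Eif3a, the core scaffold subunit, had 332 and 341 CPM in WT and 433 and 391 CPM in KO (a log2 change of 0.29, SE 0.07, adjusted p = 0.0186). Eif3c, its partner in the core, had 244 and 242 CPM in WT and 290.5 and 283 CPM in KO (0.24, SE 0.07, adjusted p = 0.0412). Both genes were higher in both KO libraries. Leaving out WT replicate 1 (adjusted p = 0.0881) or KO replicate 1 (0.0553) ended the Eif3a call. The Eif3c call ended without either of these (0.162 and 0.064) or WT replicate 2 (0.179).

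Of the remaining eIF3 genes, Eif3b, Eif3d, Eif3f, Eif3g, Eif3i, Eif3k, Eif3l and Eif3m had both KO libraries above both WT libraries without being called, with log2 fold changes of 0.11 to 0.22. Eif3h, the most abundant per length at 180 ± 9.50 RPKM in WT, had overlapping groups (log2 fold change 0.08, SE 0.08). Eif3e (-0.09, SE 0.08) and Eif3j1 (-0.31, SE 0.12, adjusted p = 0.109) had both KO libraries below WT. Eif3j1 encodes the loosely bound j subunit, and 1107 of its exonic bases overlap Spg11 on the opposite strand, which was called lower. Levels of the subunit genes differed widely per length although the proteins form one complex. Leaving out Eif3j2, described below, in WT they ran from 11.4 ± 0.873 RPKM for Eif3j1 and 13.3 ± 0.324 for Eif3d to 114 ± 0.240 for Eif3f and 180 ± 9.50 for Eif3h. Eif3a (65.1 ± 1.25) and Eif3b (64.9 ± 0.860), adjacent in level, did not differ beyond their SDs at the listed gene lengths. For Eif3a that length was 5176 bases, whereas its exons cover 8731 bases in GENCODE M21. Levels per length thus depend on the annotation used. Summed over the 13 genes other than Eif3j2, the level was 748 and 740 RPKM in WT and 847 and 790.5 RPKM in KO. KO replicate 1 was thus higher than KO replicate 2, and their median log2 differences from the WT mean were 0.18 and 0.12.

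Eif3j2, a copy of the j subunit gene with a single exon on chromosome 18, stood apart in 1 library. It had 43 and 22 counts in WT and 481 and 20 counts in KO. KO replicate 1 was high and KO replicate 2 was at the WT level, and the fitted log2 fold change of 2.90 (SE 1.71, adjusted p = 0.412) was not called. Without KO replicate 2 it was called (3.84, adjusted p = 1.5e-09), a value that rests on that 1 KO library. It was also called without WT replicate 1 (3.48, adjusted p = 4.36e-08) and with a replicate block (1.87, adjusted p = 0.00378). Of the 50-base words in its transcript, 91.8% also occur in transcripts of other genes, chiefly Eif3j1, so reads of the pair cannot be assigned with confidence. Eif3j1 in KO replicate 1 was low rather than high, at 48.5 CPM against 58.6 CPM in KO replicate 2.

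Among the genes for the helicase and scaffold of eIF4F, which binds the cap and unwinds the start of the mRNA, and for their cofactors, 1 of 7 was called. All 7 averaged over 100 CPM. Of all genes at that level 35.9% were called, against 14.5% of all genes tested, and the difference was not tested. Eif4b, a cofactor that stimulates the helicase eIF4A, rose. It had 363 and 358 CPM in WT and 441 and 412 CPM in KO (a log2 change of 0.24, SE 0.07, adjusted p = 0.0342). The KO libraries were both higher, but leaving out any library except KO replicate 2 ended the call, with adjusted p of 0.0829 to 0.164. The related cofactor Eif4h was not called (0.12, SE 0.07). The helicase genes themselves were not called. Eif4a1, at 111 ± 2.94 RPKM in WT, had a log2 fold change of 0.014 with a 95% interval of -0.14 to 0.16. Eif4a2, at 91.3 ± 2.91 RPKM, had 0.017 with an interval of -0.13 to 0.17. The Eif4a2 to Eif4a1 ratio per length was 0.859 and 0.791 in WT and 0.825 and 0.827 in KO, so the groups overlapped. Eif4a3, whose helicase sits in the exon junction complex left on spliced mRNA and not in eIF4F, had 220.1 and 219 CPM in WT and 200.2 and 178 CPM in KO. Its KO libraries were both lower without passing the test (log2 fold change -0.21, SE 0.08, adjusted p = 0.0983), and it was called without KO replicate 1 (0.0331).

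None of the scaffold genes was called. Eif4g2, which encodes DAP5, a relative that lacks the eIF4E site and serves cap-independent initiation, was the most abundant of them, at 198 ± 5.56 RPKM in WT and 209 ± 3.33 RPKM in KO (log2 fold change 0.083, 95% interval -0.04 to 0.20). Eif4g1, the main scaffold, had 393 and 367 CPM in WT and 403 and 438 CPM in KO (0.15, SE 0.08, adjusted p = 0.24). Eif4g3 was lower in level, at 24.8 ± 0.0223 RPKM in WT, with a log2 fold change of 0.03.

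The relatives and partners of the cap-binding protein eIF4E moved in both directions. Eif4e3 (ENSMUSG00000093661.1, chromosome 6, 99625135 to 99666771, minus strand), an atypical cap-binding family member, had 109 and 100.5 CPM in WT and 78.8 and 73.8 CPM in KO. The groups did not overlap and the gene fell by 0.46 on the log2 scale (SE 0.09, adjusted p = 0.00601). This call held in every alternative, with adjusted p at most 0.0413. The gene shares 373 exonic bases with Gm20696 on the same strand, whose own count was at most 1.06 CPM in any library. Eif4e2, also called 4EHP, a cap-binding repressor, had 104 and 100.1 CPM in WT and 84.6 and 87.9 CPM in KO (a log2 change of -0.24, SE 0.09, adjusted p = 0.0947) and was not called. Eif4enif1, whose product 4E-T carries eIF4E into the nucleus and to P-bodies, rose. It had 88.7 and 104 CPM in WT and 125 and 119 CPM in KO (a log2 change of 0.34, SE 0.09, adjusted p = 0.0284). Its WT replicates were spread, and leaving out WT replicate 1 ended the call (0.258). Eif4ebp3 was rare, at 81 and 87 counts in WT and 42 and 111 in KO. Eif4e1b, an oocyte form, had 0 counts in every library, which allows at most 0.081 to 0.0837 CPM for counting error alone.

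**Figure D4:**
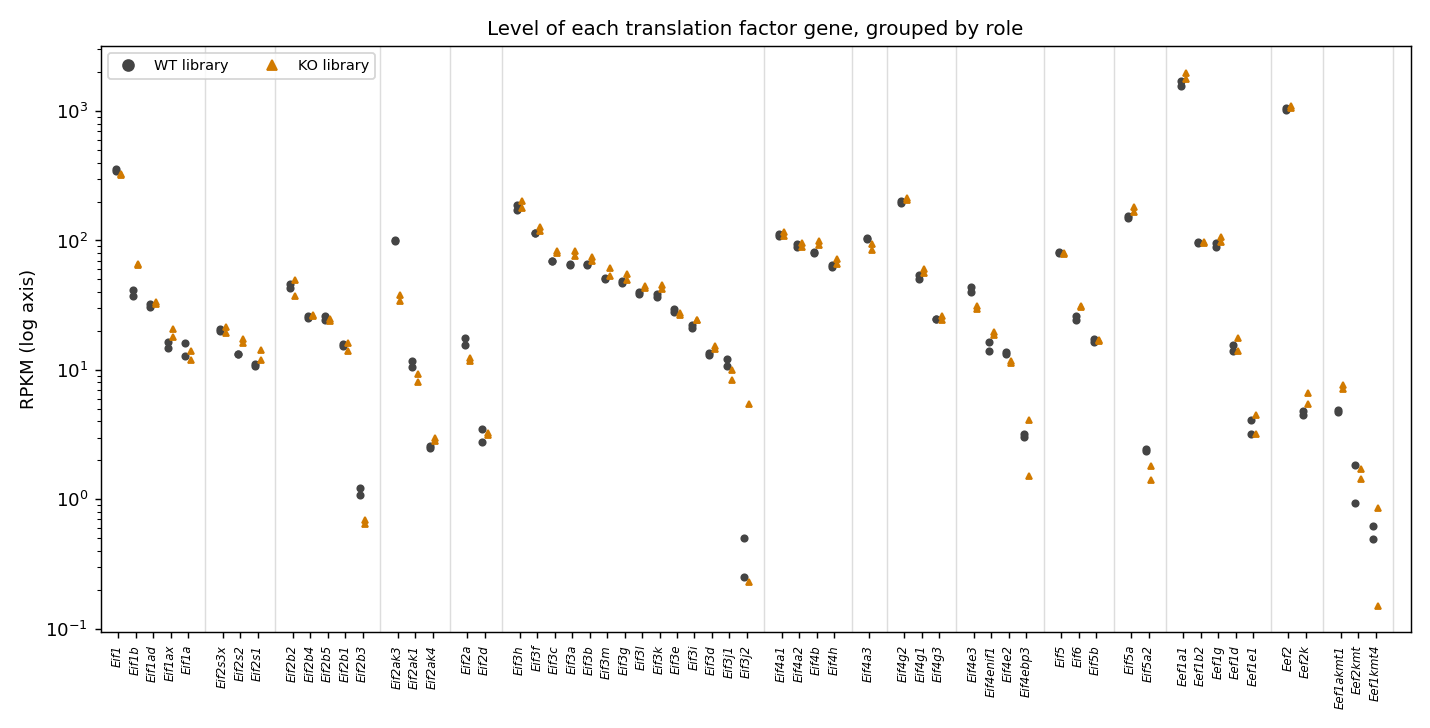
Level of each translation factor gene in RPKM (y axis, log scale) in the 2 WT libraries (circles) and the 2 KO libraries (triangles), grouped by role and separated by grey lines; the 2 genes at 0 are not drawn. Eef1a1 and Eef2 are the highest, with WT means of 1629 and 1037 RPKM, and for most genes the KO points lie close to the WT points.

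The genes that act at subunit joining were not called. Eif5, the activator of the eIF2 GTPase, had 81.0 ± 1.16 RPKM in WT and 79.1 ± 1.42 RPKM in KO (log2 fold change -0.03, 95% interval -0.18 to 0.11). Eif5b had a log2 fold change of 0.02, with overlapping groups. Eif6, which keeps free large subunits apart from small ones, had 65.7 and 70.9 CPM in WT and 84.3 and 82.8 CPM in KO. Both KO libraries were higher, with an adjusted p just outside the threshold (log2 fold change 0.29, SE 0.10, adjusted p = 0.0599), and 4 alternatives called it. Eif5a encodes a factor that resolves stalled peptide bonds and carries the modified residue hypusine. Eif5a had 357 and 365 CPM in WT and 434 and 395 CPM in KO and was not called (log2 fold change 0.20, SE 0.07, adjusted p = 0.0855). Eif5a was called with limma on the counts (adjusted p = 0.0309), with the gene length correction (0.0359) and without KO replicate 2. Its rare paralogue Eif5a2 had 442 and 436 counts in WT and 261 and 332 in KO, the opposite direction, without passing the test (-0.58, SE 0.25, adjusted p = 0.15).

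The elongation factor genes Eef1a1 and Eef2 were the most abundant members. Eef1a1 had 1629 ± 96.0 RPKM in WT and 1880.4 ± 143 RPKM in KO, and Eef2 had 1037 ± 15.9 and 1068 ± 27.7 RPKM. Together these 2 genes held 39.5% and 40.6% of all reads of the 61 genes in WT and 42.4% and 41.5% in KO. Eef1a1 had 3892 and 4231 CPM in WT and 4940.2 and 4436 CPM in KO. The KO libraries were both higher, although WT replicate 2 and KO replicate 2 lay close, and the gene was called (log2 fold change 0.21, SE 0.06, adjusted p = 0.0391). Leaving out WT replicate 1 (adjusted p = 0.183) or KO replicate 1 (0.117) ended the call. Eef2 differed little (0.044, 95% interval -0.07 to 0.16). The second eEF1A gene, Eef1a2, the form of muscle and neurons, had 0 counts in all 4 libraries. All 61 genes together took 1.85% and 1.90% of the reads in WT and 2.02% and 1.91% in KO, so KO replicate 1 stood highest and KO replicate 2 lay near WT replicate 2.

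The exchange factor subunits that recharge eEF1A were not called. Eef1b2 had a log2 fold change of 0.0031 (95% interval -0.16 to 0.16), Eef1g 0.13 (SE 0.08) and Eef1d 0.10 (SE 0.11). Eef1e1, named with them although its product is a scaffold of the aminoacyl-tRNA synthetase complex, had 0.07 (SE 0.25). Eef2k, the kinase that inactivates eEF2, had 35.5 and 33.2 CPM in WT and 48.8 and 40.6 CPM in KO. Both KO libraries were higher without a call in the main test (log2 fold change 0.38, SE 0.14, adjusted p = 0.0891). Eef2k was called with the gene length correction (adjusted p = 0.0456) and without KO replicate 2. The methyltransferase gene Eef1akmt1 had 167 and 164 counts in WT and 267 and 247 in KO (0.61, SE 0.31, adjusted p = 0.226). Eef2kmt, at 90 to 180 counts a library, and Eef1kmt4, the least abundant gene to pass the filter at 9 to 50 counts, had overlapping groups.

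Other genes of translation were examined from a list of 38 genes outside the Eif and Eef names. Of these 8 fell (21.1%, against 7.89% of all genes tested), 1 rose (2.63%, against 6.63%) and 29 were not called. The list was chosen with earlier results of these data known, so its shares may reflect that choice, and they were not tested. Level matters here too, since 17.3% of all abundant genes (100 CPM or more on average) fell, and the list was not split by level. On log2 of the RPKM values (limma) 3 of the 8 falls held, those of Pdcd4, Larp4 and Etf1. The fall with the smallest p was that of Pdcd4, whose product binds eIF4A and blocks its helicase activity. Pdcd4 had 551 and 545 CPM in WT and 314 and 305 CPM in KO, with groups far apart (log2 fold change -0.82, SE 0.07, adjusted p = 1.36e-05). Larp4, a poly(A)-binding La-related protein gene, had the largest fall by fold, with 128 and 129.6 CPM in WT and 76.5 and 63.7 CPM in KO (-0.88, SE 0.10). Larp1, which represses mRNAs with a pyrimidine tract at the cap, was not called (-0.05, SE 0.07). Among poly(A)-binding proteins and partners, Pabpc4 (-0.36, SE 0.08) and Paip2b (-0.44, SE 0.10) fell, and the main gene Pabpc1 was not called (0.13, SE 0.06). Leaving out WT replicate 1 ended the Pabpc4 call (adjusted p = 0.0835). Etf1, the release factor eRF1 that reads stop codons, fell from 303 and 299.98 CPM in WT to 238 and 220.3 CPM in KO (-0.40, SE 0.07, adjusted p = 0.00355), and its partner Gspt1 (eRF3a) was not called (0.15, SE 0.08).

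Around the phosphorylation of eIF2, Impact, an inhibitor of Gcn2, had 41.5 and 53.4 CPM in WT and 28.7 and 27.9 CPM in KO (a log2 change of -0.74, SE 0.15, adjusted p = 0.00553). Ppp1cb, a catalytic subunit of protein phosphatase 1, fell (-0.38, SE 0.07). Ppp1cc, another catalytic subunit gene, had 285 and 276 CPM in WT and 327 and 302 CPM in KO, the opposite direction, and was not called (0.17, SE 0.07, adjusted p = 0.16). The adaptors Ppp1r15a (-0.03, SE 0.11) and Ppp1r15b (0.10, SE 0.09), which direct that phosphatase to eIF2, were not called. Abcf1, whose product binds eIF2 and aids initiation, was the gene of the list that rose, from 203 and 202 CPM in WT to 254 and 262 CPM in KO (0.35, SE 0.07, adjusted p = 0.00719). Sepsecs, an enzyme that makes selenocysteine on its tRNA, fell (-0.77, SE 0.16). None of the 7 genes of diphthamide synthesis, the modification of eEF2, was called, and neither were Dhps and Dohh, which make hypusine on eIF5A.

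**Figure D5:**
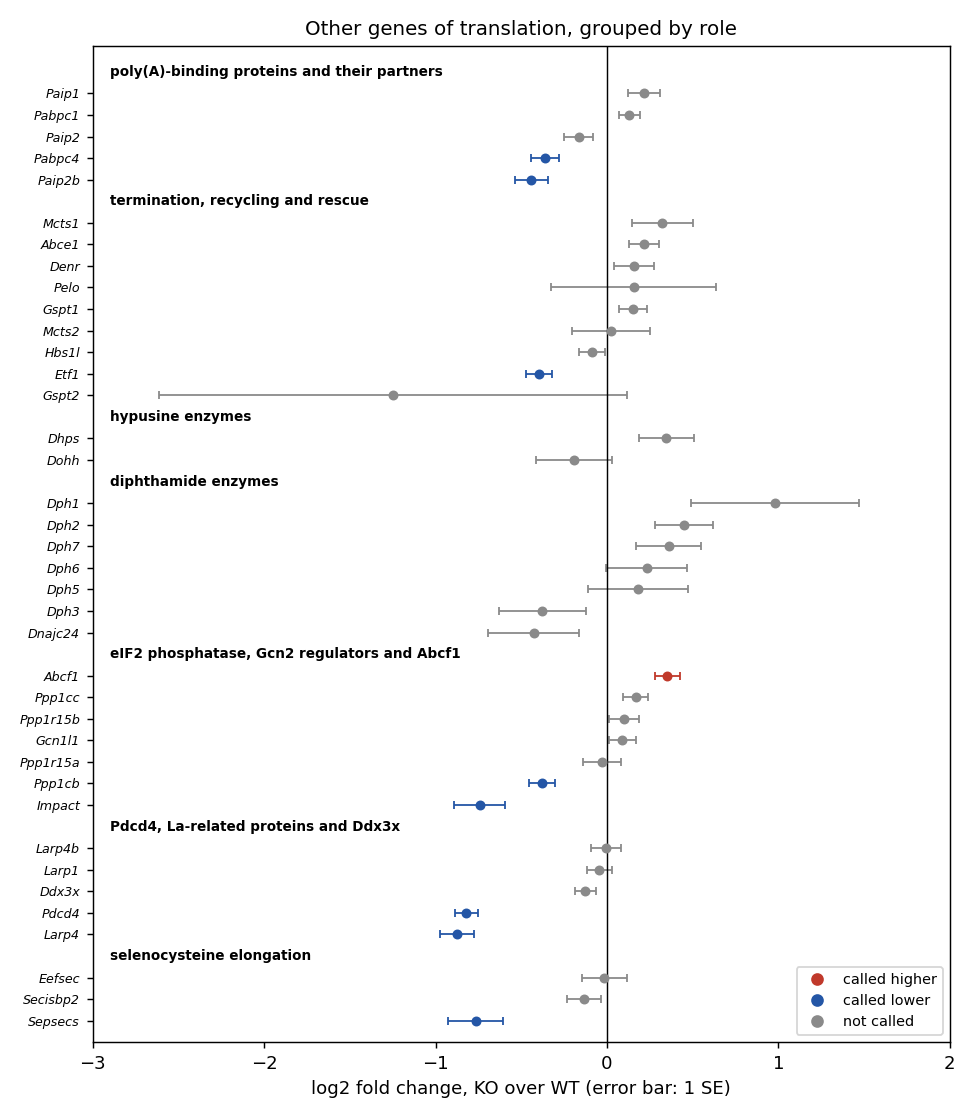
Log2 fold change, KO over WT (x axis), of the 38 other translation genes, grouped by role; bars are 1 SE of the edgeR estimate, blue marks the 8 genes called lower and red the gene called higher. Pdcd4, Larp4, Impact and Sepsecs lie lowest among the called genes, near -0.8, and Abcf1 is the gene called higher.

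Several members cannot be counted without doubt. Exons of 26 of the 61 genes overlap another annotated gene, and in 19 genes over 10% of the 50-base words of their transcripts also occur in another gene's transcripts. Among the called genes this share was 40.4% for Eef1a1, which has many processed pseudogenes, 12.4% for Eif4e3 and 10.3% for Eif2s2. It was 5.71% for Eif2ak3, 4.20% for Eif1b and 3.41% for Eif2a. Without a stated strand setting, reads of overlapping genes on opposite strands cannot be told apart.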

How the data were processed

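Gene counts of 4 libraries were used as deposited by the authors. The submitters' processing notes list STAR 2.6.0a, HTSeq 0.6.1, cutadapt 1.17, DESeq2 1.24.0, FastQC 0.11.5 and the GRCm38 (mm10) build, without their roles. Annotation release and strand setting: not given in the sources used here. The deposited RPKM values of the authors equal count divided by listed gene length and library total (largest relative difference 5.11e-15). CPM are counts scaled to the library total.

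Counts were tested with edgeR 4.0.16 (TMM, filterByExpr, robust quasi-likelihood fit, genotype only) in R 4.3.3, two-sided, with adjustment over all 16588 genes tested. DESeq2 1.42.0 and limma 3.58.1 were alternatives. Fits were tested on simulated data. Positions come from GENCODE M21 (54 of 61 members with the same versioned identifier) and promoters from RefSeq. Named genes were Srsf1, called members, the most abundant member of each role, paralogue pairs, members not called with a change of at least 0.5 log2 units at 5 CPM or more, members at or below the low-count filter and called genes of the other list. Other members were named after their values were seen, as was the 100 CPM split. Members, lists and motifs were chosen with earlier results of these data known. Figures were drawn with matplotlib 3.10.9. One cell type marker is not reported here.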

Additional observations from a re-analysis of the deposited data

How the results depend on the processing

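The falls of Eif2ak3 (log2 fold change -1.56 to -1.37) and Eif4e3 (-0.52 to -0.39) and the rise of Eif1b (0.66 to 0.82) kept direction and call in all 15 alternatives. On log2 of the RPKM values plus 0.5 (limma), 1 member was called higher (1.69%) and 2 lower (3.39%). Of all genes, 407 were called higher (2.45%) and 555 lower (3.35%). With 0.1 added these were 1 and 2 members, and 403 (2.43%) and 557 (3.36%) of all genes. Of the other translation genes, 3 were called lower with either. Members called higher numbered 2 to 13 (3.39% to 22%) and members called lower 2 to 5 (3.39% to 8.47%) when a library was left out, against 5.25% to 6.69% and 5.7% to 8.19% of all genes, with members' medians of 0.067 to 0.10. A gene length correction gave a members' median of 0.13, against 0.063 over all genes, with 12 members (20.3%) and 1502 of all genes (9.05%) called higher and 2 other translation genes called higher. Eif3k was called only with the gene length correction, and Eif2s1, Eif3m and Eif3j1 only without KO replicate 2. The cause of these shifts was not tested.

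With the replicate number as a block, 7 members were called higher (11.9%, against 7.86% of all genes) and 4 lower (6.78%, against 9.07%). The calls of Eif3c (adjusted p = 0.0746) and Eif4b (0.0516) were lost, and Eif2ak1 and Eif3j2 were gained. The replicate numbers share no stated animal or batch, and the deviations of same-numbered libraries had a correlation of -0.0391 across genes. Replicates of 2 a group and low counts limit Eif2b3, Eif5a2, Eif4ebp3 and the methyltransferase genes.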
